A study of Mus musculus with 4 samples.

Results

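Subcluster 9 was the smallest of 10 groups, numbered from 0, into which the study divided the cells it kept as group 2 innate lymphoid cells (ILC2s). Its members here are the genes that the authors listed for it in their marker table, 199 of the 2629 genes listed for any subcluster. A gene listed for a subcluster had a higher average there than in all other ILC2s, and the values analysed were the shares of cells in which the gene was found, inside the subcluster and in all other ILC2s. The subcluster was led by *Prnp*, *Pcsk1*, *Sdc4*, *Stab2*, *Kit*, *Nrp1*, *Il1r2* and *Vipr2*, each found in a share of its cells 29.3 to 42.6 percentage points above that of the other ILC2s.

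The cells came from 4 single-cell RNA libraries of wild type BALB/c mice aged 8 weeks, with 1 library per group. Liver and lung were each taken after rIL-33 and after PBS. For 5 days the rIL-33 groups received 0.5 µg of recombinant IL-33 daily by intraperitoneal injection and the controls received PBS. Each library pooled tissue from 2 to 6 mice, and cells were sorted for lack of lineage markers and for CD127, Thy1 and ST2, the IL-33 receptor encoded by *Il1rl1*. The authors merged the 4 libraries before they made the table, so no value was split by organ, treatment or animal. There was thus no replicate and no spread between samples behind any share. Cells are not replicates, the tables give neither their number nor the depth per cell, and every comparison of subclusters below is a description without a test. The shares were rounded to 3 decimals, an error of up to 0.05 percentage points. A share also depends on how many molecules were read per cell, which the table does not give, and its part in the differences was not tested. The genes that define a cluster are higher in it because the cells were grouped on their expression, which holds for all values given here.

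ILC2s are tissue lymphocytes that, without antigen receptors of their own, respond to alarmins such as IL-33, TSLP and IL-25 with the type 2 cytokines IL-5 and IL-13 and with the growth factor amphiregulin. In lung and other barrier tissues they also receive neuropeptides from nerves and neuroendocrine cells, among them CGRP, VIP and neuromedin U. Pcsk1 is a prohormone convertase that cuts peptide hormone precursors in the secretory pathway, and Il1r2 is a decoy receptor that binds IL-1 without signalling.

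Promoters are shown for *Pcsk1*, *Il1r2* and *Il5*, which were given as markers of the subcluster, and for *Prnp*, which had the largest difference of all members. They are the 250 bases before the RefSeq start site (GRCm38.p6), 5′ to 3′ on the gene's strand, all 4 on the plus strand. Capitals mark a GATA core (A or T, then GATA, then A or G) or an AP-1 motif (TGANTCA), searched on both strands; matches of the 2 motifs can share single bases at their ends. GATA3 and the AP-1 family are the transcription factors that the study followed. The *Pcsk1* window lies at chr13:75089607-75089856, *Il1r2* at chr1:40085843-40086092, *Il5* at chr11:53720544-53720793 and *Prnp* at chr2:131909678-131909927.
Pcsk1: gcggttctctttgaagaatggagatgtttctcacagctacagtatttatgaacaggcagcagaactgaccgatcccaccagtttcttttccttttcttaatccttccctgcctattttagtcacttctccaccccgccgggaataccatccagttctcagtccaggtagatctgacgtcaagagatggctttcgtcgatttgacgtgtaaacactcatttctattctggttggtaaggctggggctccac
Il1r2: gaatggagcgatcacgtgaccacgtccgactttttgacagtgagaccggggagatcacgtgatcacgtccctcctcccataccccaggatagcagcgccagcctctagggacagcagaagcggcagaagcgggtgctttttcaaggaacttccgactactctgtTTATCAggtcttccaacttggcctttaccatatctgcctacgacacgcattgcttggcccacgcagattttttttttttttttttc
Il5: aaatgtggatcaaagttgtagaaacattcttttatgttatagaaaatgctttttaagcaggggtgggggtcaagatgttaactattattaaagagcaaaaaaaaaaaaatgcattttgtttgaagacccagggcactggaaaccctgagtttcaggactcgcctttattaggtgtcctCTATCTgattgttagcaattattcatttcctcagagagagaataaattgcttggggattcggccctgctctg
Prnp: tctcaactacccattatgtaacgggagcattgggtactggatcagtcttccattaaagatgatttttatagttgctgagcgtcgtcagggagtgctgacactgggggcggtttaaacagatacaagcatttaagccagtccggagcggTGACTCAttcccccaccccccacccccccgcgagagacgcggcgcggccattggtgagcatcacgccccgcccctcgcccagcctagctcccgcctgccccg

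The *Il1r2* promoter held 1 GATA core, which begins at position -86 from the start site, and the *Il5* promoter held 1, which begins at -72. An AP-1 motif was found in the *Prnp* promoter, where it begins at -102. The *Pcsk1* window held neither. The RefSeq start of *Il1r2* lies inside the span that GENCODE gives the gene. RefSeq promoters were matched for 157 of the 199 members, with 206 start sites. A GATA core was found in 13.6% of these windows, against 16.6% for all genes listed for any subcluster and 26.5% of all 32851 promoters. For AP-1 the shares were 9.71% (20 of the 206 windows), 4.80% and 6.75%. For members at least 10 percentage points above the other ILC2s the AP-1 share was 7.1% (12 of 169 windows). That is close to the 6.75% of all promoters, so the higher AP-1 share depended on which members were counted. Start sites of the same gene were counted separately, and no difference between these shares was tested. A match is a run of letters and not a binding site.

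The size of subcluster 9 was solved from the shares, because for each gene the share in all ILC2s is the same whichever subcluster lists it. It held 0.611% ± 0.0206 (standard error of the fit over 768 genes) of the ILC2s, and other fits gave 0.592% to 0.629%. Subcluster 8 was close to it at 0.668% ± 0.0164, while the largest, subcluster 0, held 27.3% ± 0.0274. Shares in subcluster 9 therefore rest on few cells, and the share of 17 members was 100% in it.

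Inside subcluster 9 the members ranged from 25.9% to 100% of cells, with a median of 59.3%, and in the other ILC2s from 7.9% to 99.3%, with a median of 40.1%. The difference ranged from 0.7 to 42.6 percentage points with a median of 13.9, against a median of 13.3 over all 3745 listings of the table. The pooled median is lowered by subclusters 5 (median -21.3), 0 (1.4) and 3 (6.4), and the medians of subclusters 1, 2, 4, 6, 7 and 8 ran from 15.8 to 34.1, above that of subcluster 9. For 168 of the 199 members (84.4%) it was at least 10 points, against 56.3% of all listings, a share that runs from 1.10% in subcluster 5 to 94.4% in subcluster 4. Not 1 member had a lower share inside than outside, and the same held for the genes of subclusters 1, 2, 4, 6 and 8. Over all listings 29.4% had a lower share inside, 978 of those 1102 in subcluster 5 and 109 in subcluster 0. At least 2 times the share of the other ILC2s was reached by 17 members, and the median ratio was 1.37. The same values were not computed for all listings, so whether 17 is few or many for a subcluster was not tested.

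**Figure D1:**
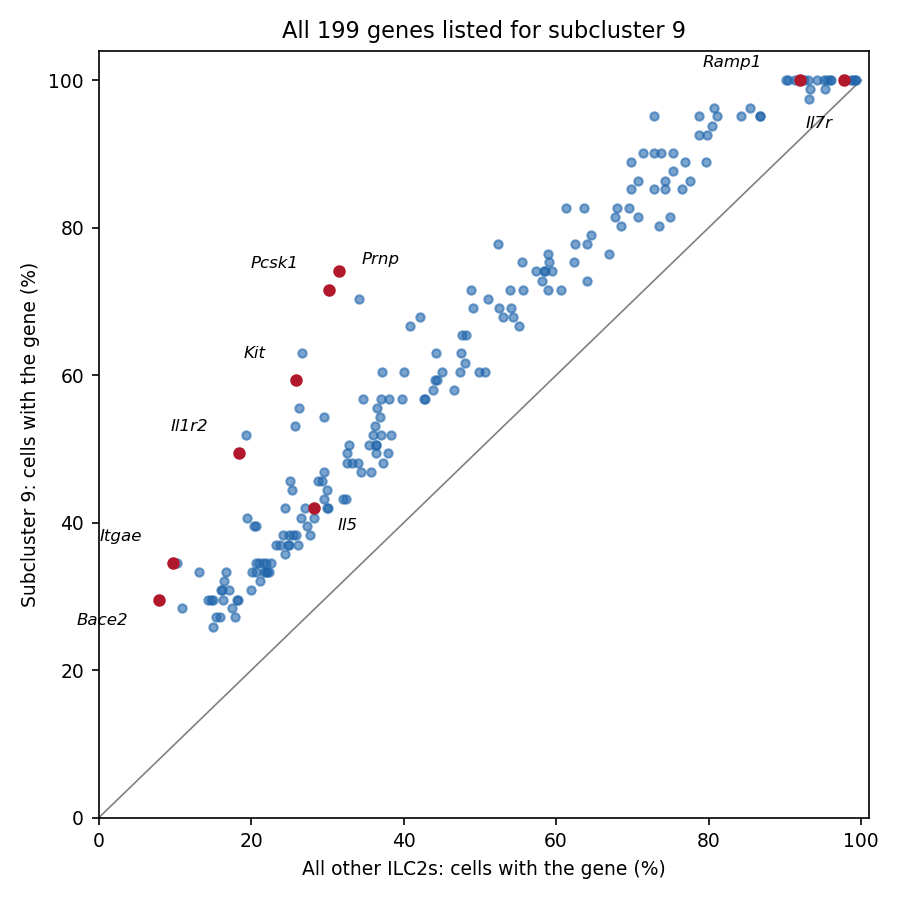
The percentage of cells with each of the 199 members in subcluster 9 (vertical axis) against the percentage in all other ILC2s (horizontal axis), 1 point per gene, with 9 named genes in red and the line of equal shares in grey. All points lie on or above the line, with *Prnp* and *Pcsk1* farthest from it, at 42.6 and 41.4 points, and *Il7r* close to it at 100% against 97.8%.

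The label ILC2 was examined with markers. *Il7r*, the receptor chain used for sorting as CD127, had a share of 100% in subcluster 9 and of 97.8% in the remaining ILC2s, and it was listed for no other subcluster. Of the other ILC2 markers, *Gata3*, *Rora*, *Il1rl1*, *Icos* and *Il2ra* were not listed for subcluster 9, and *Thy1* was listed for no subcluster. *Gata3* was found in 90.9% of all ILC2s and *Il1rl1* in 89.2%, and their shares in subcluster 9 itself are not in the table. Of 7 T cell, 4 NK cell, 4 B cell, 5 myeloid, 4 mast cell and basophil defining markers and *Foxp3*, 0 were listed for it. Only 5 of the T cell, 1 of the NK cell and 1 of the B cell markers, and none of the rest, were listed for any subcluster. With 7.57% of all listed genes on the list of subcluster 9, a count of 0 is the background for so few. The study had removed cells with markers of other types, among them *Cd3* and *Cd11b*, before it divided the ILC2s, so the count of 0 is also in part set by that step. In every listing at least 25% of cells on one side had the gene, so low levels of such markers would not appear.

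*Pcsk1* (GRCm38 chromosome 13, 75089826 to 75134861, plus strand, protein-coding) was found in 71.6% of subcluster 9 and in 30.2% of the remaining ILC2s. Subcluster 0 also listed it, at 42.9% of its cells. No other subcluster did. Subcluster 9 held 1.44% ± 0.049 (standard error from the fitted size) of all ILC2s with *Pcsk1*, and subcluster 0 held 38.6% of them. *Pcsk1* thus had its highest listed share in subcluster 9 while most ILC2s with it lay elsewhere.

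*Il1r2* (chromosome 1, 40074079 to 40125231, plus strand), whose promoter with a GATA core is printed above, was found in 49.4% of subcluster 9 and in 18.4% of the remaining ILC2s. Further listings were at 44.5% in subcluster 7, at 34.0% in subcluster 4 and at 29.2% in subcluster 2. Subclusters 9 and 7, which are neighbours in this order, differ by less than 5 points, a gap that was not tested because there is no replicate. Of all ILC2s with *Il1r2*, subcluster 2 held 28.7%, subcluster 4 held 16.9%, subcluster 7 held 3.41% and subcluster 9 held 1.62%.

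*Il5* (chromosome 11), the cytokine that recruits eosinophils, was found in 42.0% of subcluster 9, in 28.3% of the remaining ILC2s and in 46.5% of subcluster 7. It was listed for these subclusters alone. Further type 2 genes without a listing in subcluster 9 were *Il13*, *Areg* and *Il4*. Of these, *Il13* was found in 37.0% of all ILC2s and was listed for subclusters 1, 2, 4, 7 and 8, and *Areg* was found in 39.5% and listed for 3, 7 and 8. *Il4* was listed for subcluster 7 alone.

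**Figure D2:**
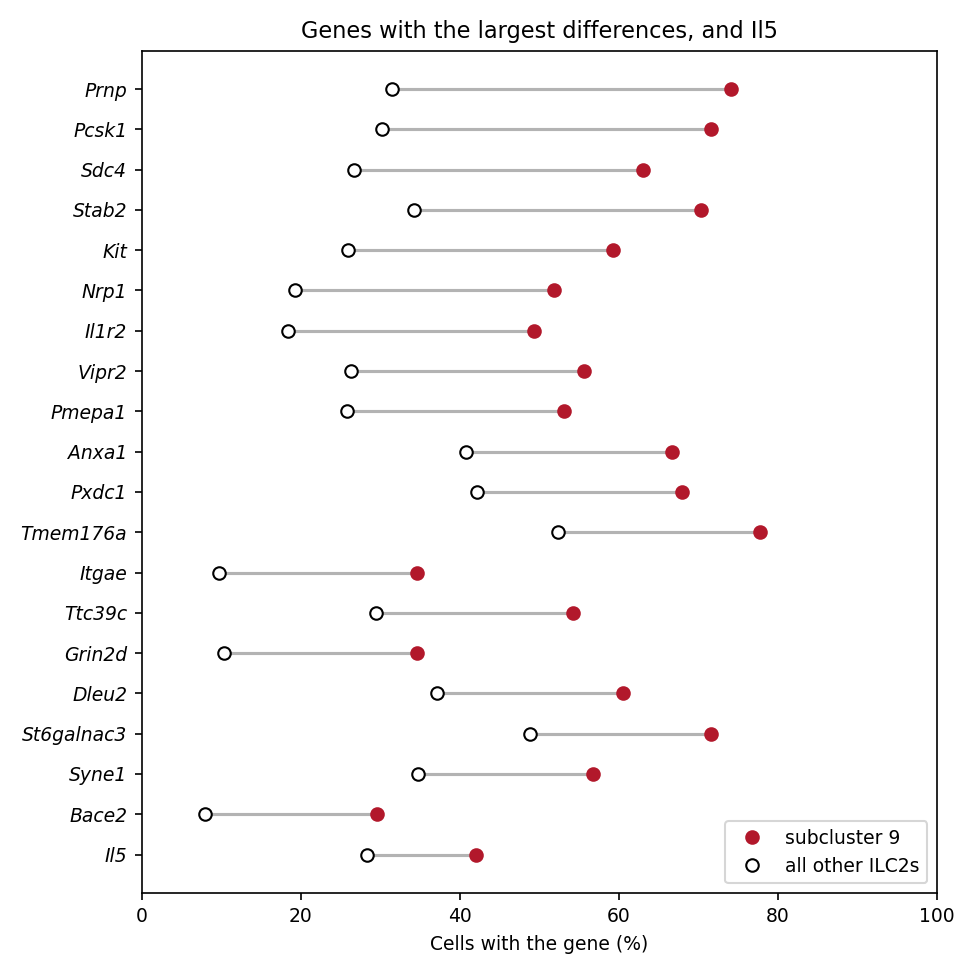
The percentage of cells with the gene in subcluster 9 (red) and in all other ILC2s (white) for members among the 20 with the largest difference and for *Il5*, in order of the difference. *Prnp* leads at 74.1% against 31.5% and *Bace2* closes them at 29.6% against 7.9%; there are no error bars because there is no replicate.

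Of 38 genes of prohormone processing and neuropeptide sensing on a list written for this work, 8 were listed for any subcluster and 5 for subcluster 9 (62.5%, against 7.57% of all listed genes), with a median difference of 13.3 points, against 13.9 over all members. The list was written with *Pcsk1* already known as a marker of the subcluster, so this count is a description and supports nothing. *Furin*, a convertase of the same family as *Pcsk1* that acts in most cells, was found in 86.4% of its cells against 74.3% of the others, and subcluster 2 had a slightly higher share of 87.3%. *Ramp1* and *Calcrl* encode the 2 parts of the CGRP receptor. *Ramp1* was found in 100% of the cells against 92.0%, and *Calcrl* in 38.3% against 25%, in both cases the highest share among the subclusters that listed the gene. Subcluster 0 followed for *Calcrl* at 32.4%, and for *Ramp1* the shares in subclusters 6 and 0 were 98.4% and 96.7%. *Vipr2*, a receptor for VIP, was found in 55.6% against 26.3%, above 33.8% in subcluster 0 and 33.6% in subcluster 3. *Calca*, which encodes CGRP itself, and *Cpd* and *Pcsk7* were listed only for other subclusters.

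Among receptors of cytokines, 4 of 14 listed genes were on the list (28.6%, against 7.57% of all listed genes). *Il1r2* was already known as a marker of the subcluster, so this count is a description and supports nothing. Besides *Il1r2* and *Il7r* the receptors on the list were *Il17rb*, a chain of the IL-25 receptor, at 65.4% against 48.2%, and *Il18rap*, a chain of the IL-18 receptor, at 56.8% against 39.8%. *Il17rb* was higher in subcluster 6 (72.7%) and about as high in subcluster 2 (66.7%), whereas the only other subcluster that listed *Il18rap* was subcluster 5, at 23.9%. *Sigirr*, an inhibitory member of the IL-1 receptor family, was picked with its values in view and stood at 53.1% against 36.2%. Of 5 listed genes of that family, a group put together with the values in view and so no support, *Il1r2*, *Il18rap* and *Sigirr* were on the list of subcluster 9, and *Il1rl1* and *Il18r1* were on those of other subclusters only. *Il1r2*, *Il1rl1* (40429570 to 40465415) and *Il18rap* (40515362 to 40551705) lie near each other on the plus strand of chromosome 1.

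Of the 6 largest differences, that of *Pcsk1* is described above and the other 5 follow. *Prnp*, the prion protein, was found in 74.1% of subcluster 9 and in 31.5% of the remaining ILC2s, with 59.1% in subcluster 0 and 55.0% in subcluster 3. *Sdc4*, a heparan sulphate proteoglycan, was at 63.0% against 26.7%, and *Stab2*, a scavenger receptor best known from liver sinusoidal endothelium, at 70.4% against 34.2%. Subclusters 0 and 3 listed *Sdc4* at 52.6% and 39.9%. The share of *Stab2* in subcluster 0 was 68.4%, close to that in subcluster 9. *Kit*, the stem cell factor receptor, was found in 59.3% against 25.9%, and its shares in subclusters 0, 3 and 5 were 41.5%, 36.7% and 11.2%. *Nrp1*, a co-receptor for semaphorins and VEGF, was at 51.9% against 19.3%, and 30.1% in subcluster 0. *Stab2* is also on the endothelial list, *Kit* on that of mast cells and basophils, and *Nrp1* and *Ltb4r1* on that of ILC3s. The only other listed genes of these lists were *Pecam1* and *Il4*, in other subclusters, so that the defining genes of endothelium (*Cdh5*, *Kdr*), mast cells (*Cpa3*, *Fcer1a*) and ILC3s (*Il23r*, *Il22*) were listed for no subcluster.

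**Figure D3:**
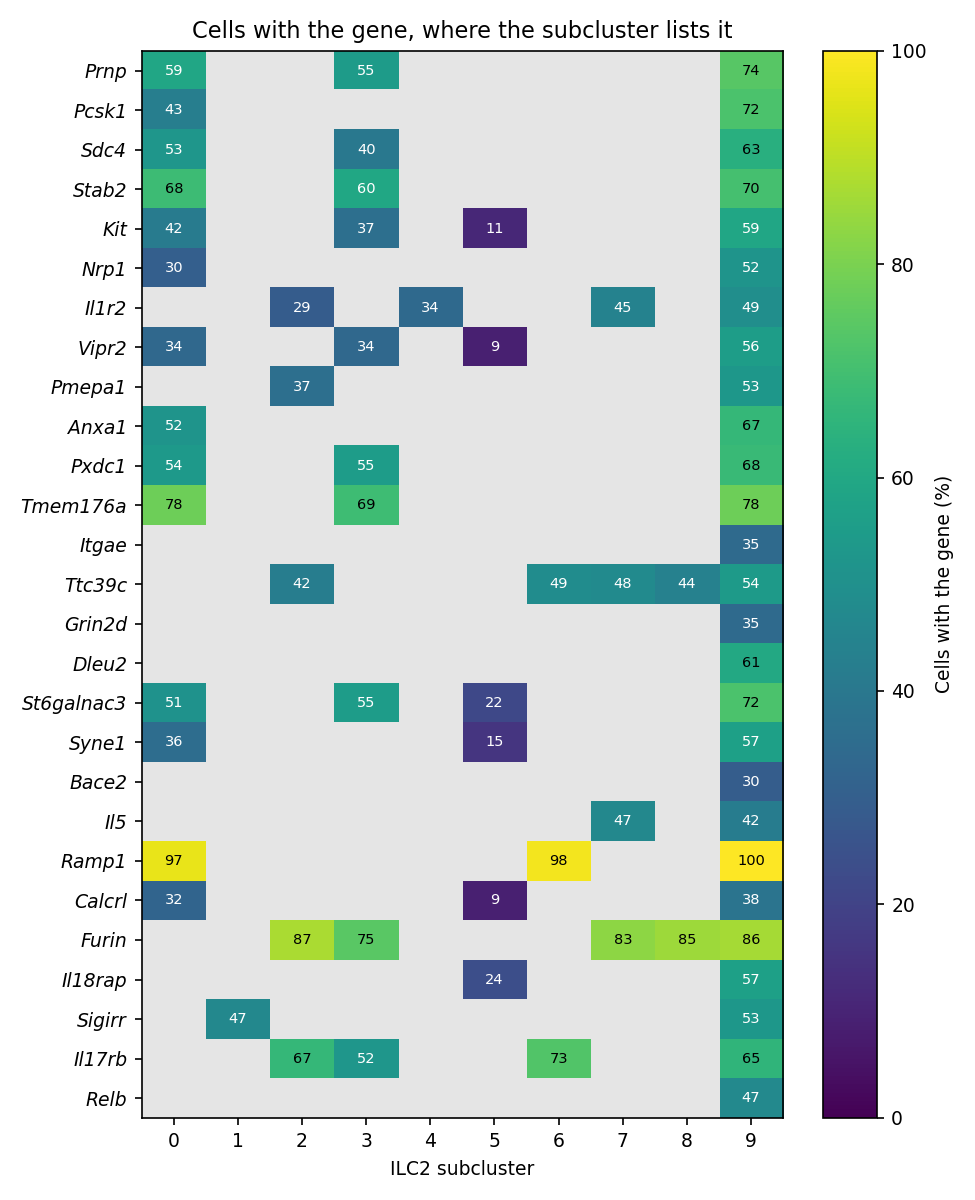
The percentage of cells with the gene (colour and number, rounded to whole percent) for 27 members in each ILC2 subcluster that lists them; grey means that the subcluster does not list the gene, and its share is then unknown. Subcluster 9 has the highest share in most rows, and the exceptions include *Il5* (subcluster 7), *Furin* (subcluster 2) and *Il17rb* (subcluster 6).

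The members listed for subcluster 9 alone numbered 71 (35.7%), against 49.7% of all listings that were for a single subcluster. Subclusters 4 (75.9%) and 5 (71.2%) carry that background, and in the remaining subclusters apart from subcluster 9 the share ran from 1.53% to 37.4%. Counting only listings at least 10 points above the other cells, 110 of 168 members were listed for subcluster 9 alone. The share of lone listings over all listings was not computed at this cut-off, so 49.7% is no background for that count. The cut-off kept 52 of 300 listings in subcluster 0, 67 of 237 in subcluster 3 and 11 of 1000 in subcluster 5. Lone listings rise as others drop out. The members listed for subcluster 9 alone were led by *Itgae*, the integrin CD103 that binds E-cadherin on epithelium, which was found in 34.6% of the cells against 9.7% of the others. *Grin2d*, a subunit of NMDA-type glutamate receptors, was at 34.6% against 10.3%, the non-coding *Dleu2* at 60.5% against 37.1%, and *Bace2*, a protease related to beta-secretase, at 29.6% against 7.9%. The largest ratios of shares among all members were 3.75 for *Bace2*, 3.57 for *Itgae* and 3.36 for *Grin2d*. Even so, subcluster 9 held only 2.25%, 2.15% and 2.02% of the ILC2s with these 3 genes, and 2.25% was the highest such part of any member. *Wee1*, a kinase that holds back mitosis, was at 39.5% against 20.7%, *Rasgrp1*, which activates Ras, at 56.8% against 38.1%, and *Relb*, a subunit of NF-kB, at 46.9% against 29.6%. At the other end of the list were genes of nearly all ILC2s, with differences of 0.7 points for *Ubb*, 0.8 for *Itm2b*, 1.1 for *Fth1*, 1.3 for *Cd52* and 2.2 for *Il7r*.

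Further members of the 20 largest differences or 10 largest ratios were *Pxdc1* (67.9% against 42.2%), *Tmem176a* (77.8% against 52.4%), *Ttc39c* (54.3% against 29.5%), *St6galnac3*, a sialyltransferase (71.6% against 48.9%), *Syne1*, a protein of the nuclear envelope (56.8% against 34.7%), *Lxn*, a carboxypeptidase inhibitor (28.4% against 10.9%) and *Camk2n1*, an inhibitor of the kinase CaMKII (33.3% against 13.2%). *Ubb* and *Fth1* have near-identical copies in the genome, so their counts are uncertain.

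**Figure D4:**
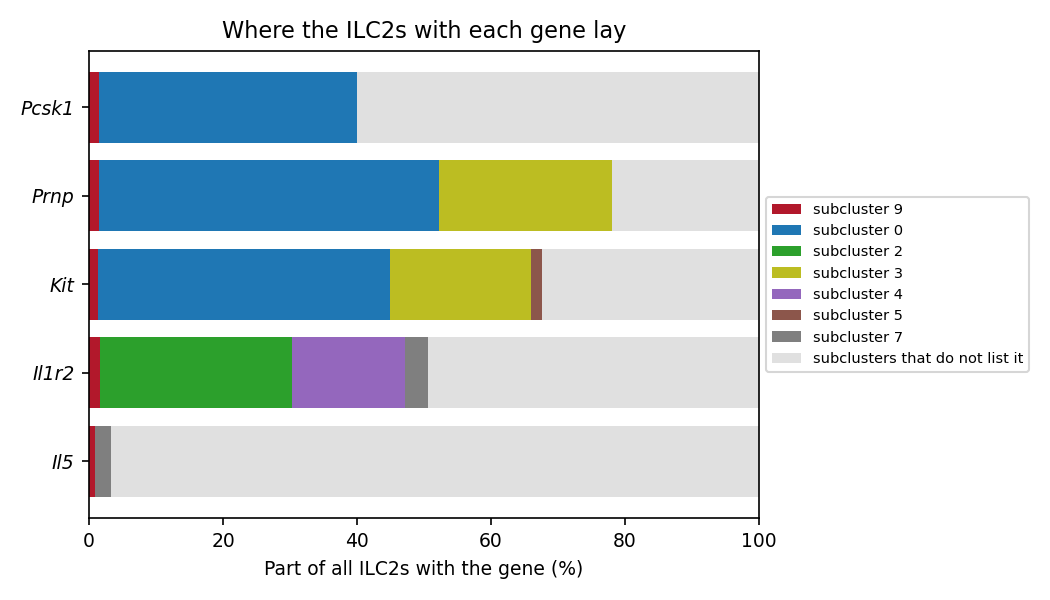
For 5 members, the part of all ILC2s with the gene (percent of those cells) that lay in subcluster 9 (red), in the other subclusters that list the gene (colours) and in subclusters that do not list it (light grey). Subcluster 9 held 1.44% for *Pcsk1*, 1.43% for *Prnp*, 1.39% for *Kit*, 1.62% for *Il1r2* and 0.904% for *Il5*.

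The remaining 128 members were listed for at least 1 further subcluster, 68 of them for exactly 1 further. In 93 of the 128 (72.7%, 2 of them ties) the share in subcluster 9 was the highest of the subclusters that listed the gene. For the other subclusters this part ran from 0.347% in subcluster 5 to 75.6% in subcluster 4. The list had most in common with that of subcluster 0, with 64 shared genes, 32.2% of the genes of subcluster 9 and 21.3% of those of subcluster 0. With differences of at least 10 points in both, 19 genes were shared with subcluster 0 and 19 with subcluster 6, so this first place rests on small differences in subcluster 0. All subclusters were compared with the same pool of cells, each with the others in it, so these lists are not independent. Over the 64 genes the median share was 67.3% in subcluster 9 and 51.5% in subcluster 0, and the median difference from the remaining cells was 14.8 and 3.7 points. Subcluster 9 had the higher share in 61 of the 64. With subcluster 3 it shared 29 genes, 14.6% and 12.2% of the respective lists, and was higher in 27. The order turned for subcluster 6, where 27 genes were shared (13.6% and 14.2%) with median shares of 85.2% and 89.3%, and subcluster 9 was higher in 11. It was higher in 9 of 21 genes shared with subcluster 2. All 33 genes shared with subcluster 5 were found there in fewer cells than in the other ILC2s (median 17.8% inside, against 56.8% in subcluster 9), among them *Kit*, *Vipr2*, *Calcrl*, *Cd44* and *Zeb2*.

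Further lists gave few members, and their counts are to be read against the 7.57% of all listed genes that were members. *Tox*, a nuclear factor of innate lymphoid development, was found in 51.9% against 36.0% and *Zeb2* in 42.0% against 27.1%, 2 of 20 listed lymphoid transcription factors (10.0%), a share near that background. Of 22 listed chemokine receptor, integrin and tissue exit genes, 3 were members (13.6%): *Itgae*, *Ltb4r1*, a leukotriene B4 receptor at 100% against 90.4%, and *Cd69*, which retains lymphocytes in tissue, at 92.6% against 78.7%. The annexins *Anxa1* (66.7% against 40.8%) and *Anxa5* (69.1% against 52.5%) were 2 of 11 listed S100, galectin and annexin genes (18.2%). *Sat1*, the enzyme that marks polyamines for breakdown, was at 77.8% against 62.5%. *Icosl*, the ligand of ICOS, was at 38.3% against 25.5% and was 1 of 12 listed checkpoint and costimulatory genes (8.33%). The lipid droplet gene *Plin2*, at 75.3% against 59.1%, was 1 of 7 listed lipid genes (14.3%). *Dusp6*, a phosphatase of the MAP kinase ERK, was at 42.0% against 24.5% and was 1 of 22 listed immediate early and MAPK feedback genes (4.55%). *Cd44*, the hyaluronan receptor, was at 82.7% against 68.0%.

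Of 7 listed AP-1 family genes 0 were members, and the same held for 18 interferon response genes, 16 proliferation genes, 12 heat shock chaperones, 12 cytokine signalling feedback genes and 10 glycolysis genes. With 7.57% of all listed genes on the list of subcluster 9, few or no members are the background for lists of this size. Missing from the list does not show that these genes were unchanged or low, since their shares in subcluster 9 are not in the table.

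**Figure D5:**
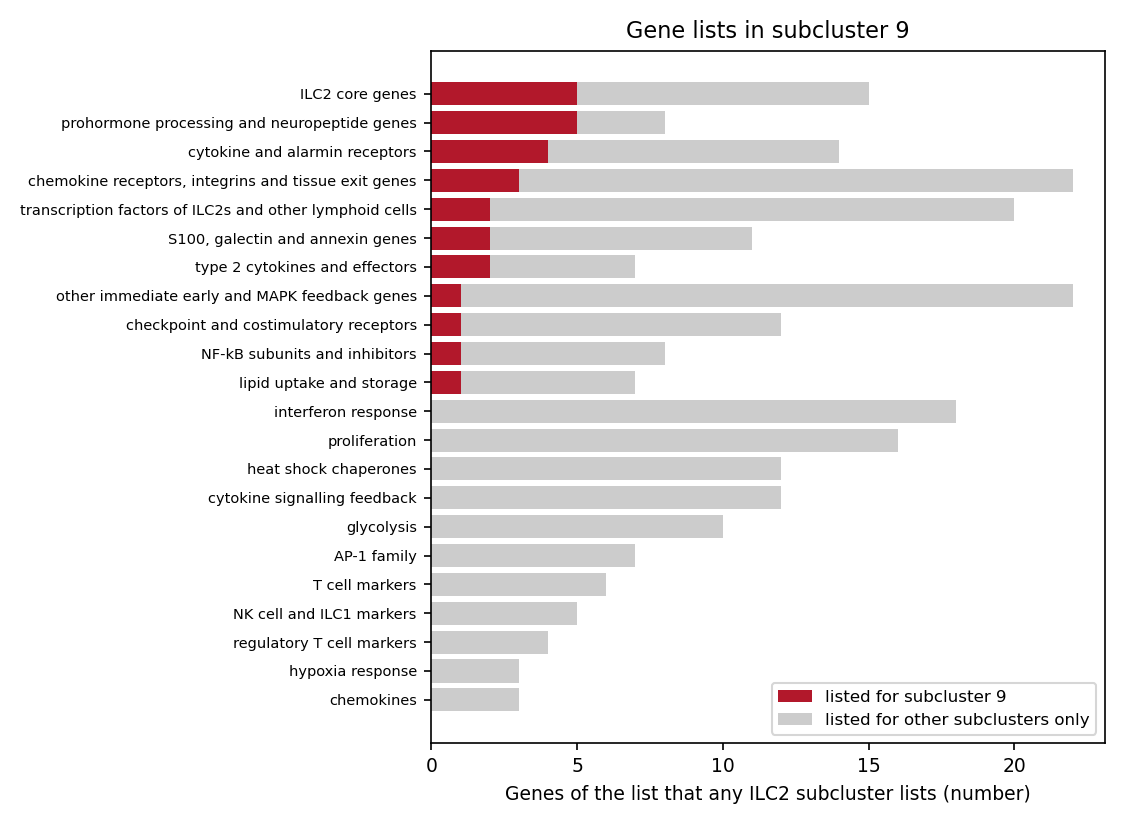
The number of genes of each list that were listed for subcluster 9 (red) and for other subclusters only (grey). The lists drawn are from the 30 chosen with earlier results known, each with at least 3 genes listed for any ILC2 subcluster. Groups put together after the values were seen are not drawn. In red are 5 of 15 ILC2 core genes (33.3%) and 5 of 8 prohormone processing and neuropeptide genes (62.5%), against 7.57% of all listed genes. None of the 18 interferon response genes is in red. The counts are descriptions.

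The second table, in which 21 named cell types among all sorted cells were each compared with the rest, held 66 of the members. Its shares are on another scale, and what kind of value they were taken from is not stated: the share of *Kit* was 78.7% for the cells named ILC2 there but 26.1% for the ILC2s here. Shares were therefore not compared between the tables. Of the 66 members, 30 were listed for ILC2 (45.5%, and 25.9% of the ILC2 genes found in both tables). Of the 820 genes in both tables, 8.05% were members. The next were ILC3 with 23 (34.8% and 20.9%), gdT_TypeIII_CD163l1 with 21 (31.8% and 16.2%) and ILC1_ILC3 with 19 (28.8% and 13.1%), and gdT_TypeI had 0. This order depended on the size of the differences. With a difference of at least 10 points within each table, on its own scale, ILC2 had 24, Basophil and Macrophage 17 each, MMP_LMPP and Endothelium cell 16 each, ILC1_ILC3 15, gdT_TypeIII_CD163l1 and gdT_TypeIII_ITGAE 11 each and ILC3 9. These counts come from lists of unlike length. Without the threshold, members were 17.2% of the Macrophage genes found in both tables, 15.7% for Endothelium cell and 13.6% for Basophil. For MMP_LMPP the part was 6.41%, below the 8.05% of all genes in both tables. *Il5* was listed for ILC2 alone. *Pcsk1* was listed only for ILC2_2 and *Il1r2* only for MMP_LMPP, both named as the authors' table does. *Prnp* and *Stab2* were listed for ILC2 and gdT_TypeII, and *Stab2* for ILC2_2 as well.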

How the data were processed

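Droplet-based single-cell RNA libraries (4, with 1 per group) were processed by the authors with Cell Ranger against mm10 and with Seurat. Flow cytometry served to remove doublets and dead cells, cells with few genes were left out, each cell was normalised to its own total before a log transformation, and ILC2s were clustered in the merged matrix after cells with markers of other cell types had been removed. No doublet caller was run here, since the tables hold no cells. The fractions used here (share of cells with a value above 0, inside a cluster and in all other cells) are the authors' deposited values in a pair of marker tables; which normalised values they were taken from is not given in the sources used here. The deposited log2 fold changes and p-values are the authors' own comparisons over cells and were not used, except to check that 0 of the 3745 and 0 of the 4422 fold changes were negative.

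Differences and ratios of shares, cluster sizes (least squares, checked on simulated tables with known sizes) and motif counts were computed in Python 3.11.15 with NumPy 2.4.6 and pandas 2.3.3. The residuals of the size fit had a root mean square of 0.0266 percentage points, against 0.0289 from rounding alone. Gene positions are from GENCODE M21 (GRCm38), which matched 197 of 199 members, 195 of them protein-coding. The part of all ILC2s with a gene that lay in a subcluster is its size times its share, divided by the share in all ILC2s.

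Members and gene lists were chosen with earlier results of these data known. Named genes are the markers *Pcsk1*, *Il1r2* and *Il5*, the 20 largest and 5 smallest differences, the 10 largest ratios and members of 30 lists; *Sigirr*, *Thy1*, the genes under other observations and a few shown for contrast were chosen after their values were seen. Some genes that the rule names are not reported here.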

Additional observations from a re-analysis of the deposited data

How the results depend on the processing

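No paired analysis was possible because the values were pooled over the 4 libraries, and for the same reason no library could be left out. Of 45 alternative values, 36 stayed within 1.5 times the reported count or, for the size of subcluster 9, within its 95% interval, and 9 moved. Keeping only listings at least 10 percentage points above the other cells raised the genes listed for subcluster 9 alone from 71 to 110, since listings in other subclusters dropped out, and lowered the genes shared with subclusters 0, 1, 3 and 5 to 19, 3, 8 and 0, those also listed for ILC3 and gdT_TypeIII_CD163l1 to 9 and 11, and the members on the ILC3 list to 1. With this threshold subclusters 0 and 6 each shared 19 genes with subcluster 9, so subcluster 0 no longer stood first alone. A threshold of 20 points left 26 members. These moves follow from stricter thresholds. Sizes, shares and ratios carry no error between animals, and depth per cell was unknown.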

Other observations

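Further groups were put together after the values of the members had been seen, and are given as values only. Of 70 listed genes of the respiratory chain, ATP synthase and their assembly factors, 9 were members (12.9%, against 7.57% of all listed genes). *Uqcc3*, an assembly factor of complex III, had a share of 74.1% in subcluster 9 and of 58.4% in the remaining ILC2s and *Sdhaf1*, an assembly factor of complex II, a share of 65.4% against 47.7%. *Uqcr10* and *Uqcrq* were higher in subcluster 4, the only subcluster that listed *Mki67*, at 97.5% and 98.5%. *Uqcrq* was also higher in subclusters 7 (96.5%) and 6 (92.1%) than in subcluster 9 (87.7%).

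Lysosomal genes gave 6 of 16 (37.5%, against the same 7.57%), among them the proteases *Ctsb* (66.7% against 55.2%) and *Lgmn* (46.9% against 34.4%), the membrane protein *Lamp2* (49.4% against 38.0%) and the progranulin gene *Grn* (34.6% against 21.0%). *Lgmn* was higher in subclusters 6 and 2. Amino acid transport gave 3 of 8 (37.5%), with *Slc7a8* at 76.5% against 58.9%, its heavy chain partner *Slc3a2* at 85.2% against 76.5% and *Slc43a2* at 49.4% against 36.4%. *Slc7a8* was higher in subcluster 0 (83.3%) and in subcluster 3 (79.6%). The members also held *Pmepa1* and *Ldlrad4*, both known as inhibitors of TGF-beta signalling, at 53.1% against 25.8% and 48.1% against 32.6%, and subcluster 2 was the only other subcluster that listed either.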
